A study of Homo sapiens with 4 samples.

Results

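The ZNF genes of chromosome 19 are described here as targets of TRIM24 and TRIM28 in prostate cancer cells. Members were the protein-coding genes of the GENCODE annotation of GRCh37 on chromosome 19 whose symbol starts with ZNF followed by a digit. There were 249 of them among 20176 protein-coding genes, and 266 further genes named in the same way lay on other chromosomes. Readthrough genes, whose symbols join gene names with a hyphen, made up 3 of the members. A coding transcript was annotated for 248 members, and in these the last coding exon of the longest coding transcript had a median of 1526 coding bp. The pattern of the C2H2 finger occurred 3110 times in the translated members, and 3074 of these copies lay inside the last coding exon, with a median of 12 fingers per member. A pattern of the KRAB A box was found in 211 members and not in 37.

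Most ZNF genes encode transcription factors that read DNA with an array of C2H2 zinc fingers, and many carry a KRAB domain at the other end of the protein. The KRAB domain recruits TRIM28, which brings in the histone methyltransferase SETDB1, HP1 proteins and histone deacetylases and leads to trimethylation of H3K9 and silent chromatin. The genes arose largely by tandem duplication, so they lie in clusters, and their finger arrays, encoded in a single last exon, are themselves known places of TRIM28 and H3K9me3 in many human cell types. TRIM24, a related protein with a bromodomain, acts as a coactivator of the androgen receptor in prostate cancer.

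The samples were 4 ChIP-seq libraries of LNCaP, a human line from prostate cancer that responds to androgen and that the labels give as wild type. HA-TRIM24 was precipitated through its HA tag from LNCaP stably expressing the tagged protein, so these libraries report a protein added to the cells. TRIM28 was precipitated with an antibody against TRIM28 itself, from LNCaP that carried no tag per the labels, while the study's own account names the HA-TRIM24 line for both. All cells were kept for 3 days in medium with 5% charcoal-stripped serum, which removes steroid hormones, and then received ethanol vehicle or 10 nM R1881, a synthetic androgen, for 16 h. There was 1 library per condition, so no difference between conditions can be tested, and every interval below is an exact 95% interval that covers counting error only.

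Each library came as a list of called sites of 155 to 165 bp with a normalized tag count, that is tags scaled to 10000000 per library. The library depth was 11606880 tags (ethanol) and 12884097 tags (R1881) for HA-TRIM24, and 25145171 and 14231181 tags for TRIM28. The lists held 5232, 9363, 58201 and 34574 sites in that order, of which 204, 396, 1936 and 1112 were on chromosome 19. The lowest normalized tag count was 6 and 5.4 in the HA-TRIM24 lists and 4 and 5.6 in the TRIM28 lists, so the deeper TRIM28 library with ethanol reached weaker sites. No input library entered the calling.

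Most sites in the last coding exons lie on the repeated unit of the finger array, and the strongest site with R1881 of 4 members from different clusters shows this. The sequences are given 5′ to 3′ on the coding strand from the GRCh37 genome, and capitals mark the codons, or the part of a codon at the edge of the site, of the cysteines and histidines that hold the zinc ion. The sites were chr19:2933563-2933719 on the minus strand in ZNF77, chr19:44980874-44981030 on the minus strand in ZNF180, chr19:56935414-56935570 on the plus strand in ZNF583 and chr19:58132213-58132369 on the plus strand in ZNF134.
ZNF77: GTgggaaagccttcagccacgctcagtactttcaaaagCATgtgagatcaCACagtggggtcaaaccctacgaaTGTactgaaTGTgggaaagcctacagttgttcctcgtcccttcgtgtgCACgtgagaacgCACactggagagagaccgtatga
ZNF180: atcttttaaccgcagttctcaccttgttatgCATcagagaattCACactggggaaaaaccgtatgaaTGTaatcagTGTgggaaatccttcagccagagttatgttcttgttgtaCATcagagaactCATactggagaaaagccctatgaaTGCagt
ZNF583: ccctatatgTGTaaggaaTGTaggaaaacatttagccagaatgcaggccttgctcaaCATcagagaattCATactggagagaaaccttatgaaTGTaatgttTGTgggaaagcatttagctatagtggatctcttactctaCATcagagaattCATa
ZNF134: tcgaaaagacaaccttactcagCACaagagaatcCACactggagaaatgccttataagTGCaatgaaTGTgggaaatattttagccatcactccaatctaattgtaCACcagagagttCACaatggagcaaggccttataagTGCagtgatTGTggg
Each of these sites of 157 bp held 1 or 2 whole fingers, and between 6 and 8 of the marked codons lay entirely inside it. Between the last histidine of a finger and the first cysteine of the next runs the conserved linker. The word TGGAGAGAA from that linker, searched on both strands, was in 53 of 103 TRIM28 sites in member last exons with ethanol (51.5%) and in 45 of 91 with R1881 (49.5%). Windows of 157 bp laid end to end along the last coding exons of the members held it in 740 of 2296 cases (32.2%). These windows covered exons with and without a site, also outside the finger array. Place in the array was thus not matched, and the sites with ethanol, at 165 bp, were longer than the windows. Among all other chromosome 19 sites the share was 0.927% of 1833 sites with ethanol and 1.37% of 1021 with R1881.

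TRIM28 sites were found in the last coding exon of 90 of 249 members with ethanol (36.1%, interval 30.2 to 42.5) and of 79 with R1881 (31.7%, interval 25.99 to 37.9). Of all protein-coding genes, 2.47% had such a site with ethanol and 1.65% with R1881. HA-TRIM24 had a site in the last coding exon of 0 of 249 members with either treatment, for which the exact upper bound is 1.47%, while 0.178% of all genes with ethanol and 0.387% with R1881 had one. The exons of the members are long. Among 1452 genes not named ZNF with at least 1000 coding bp in the last exon, 87 (5.99%) and 45 (3.10%) had a TRIM28 site there, against 86 (39.4%) and 74 (33.9%) of 218 members with exons of that length.

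TRIM28 sites in the last coding exon were also counted in genes outside the members. ZNF genes elsewhere in the genome had a TRIM28 site in the last coding exon in 75 of 266 cases with ethanol (28.2%, interval 22.9 to 34.0) and in 73 with R1881 (27.4%, interval 22.2 to 33.2), and these intervals overlap those of the chromosome 19 members. On chromosome 19 itself, 32 genes of other names encoded at least 3 fingers, and 8 of them with ethanol and 4 with R1881 had such a site. Inside the spans of the ZNF clusters, 0 of 80 genes with fewer than 3 fingers had one in either list, with an upper bound of 4.51%. Such genes of chromosome 19 outside the spans had one in 21 (1.95%) and 10 (0.929%) of 1076 cases, shares below that bound. Exon length was not matched between these groups, and the part of location or fingers was not tested. Members with the KRAB pattern carried a site in 82 (38.9%) and 72 (34.1%) of 211 cases, and those without it in 8 (21.6%) and 7 (18.9%) of 37. Among exons of at least 1000 coding bp the shares were 39.6% with the pattern and 38.1% without it (8 of 21) with ethanol, and 34.0% and 33.3% with R1881, so the gap was not seen at that length.

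**Figure D1:**
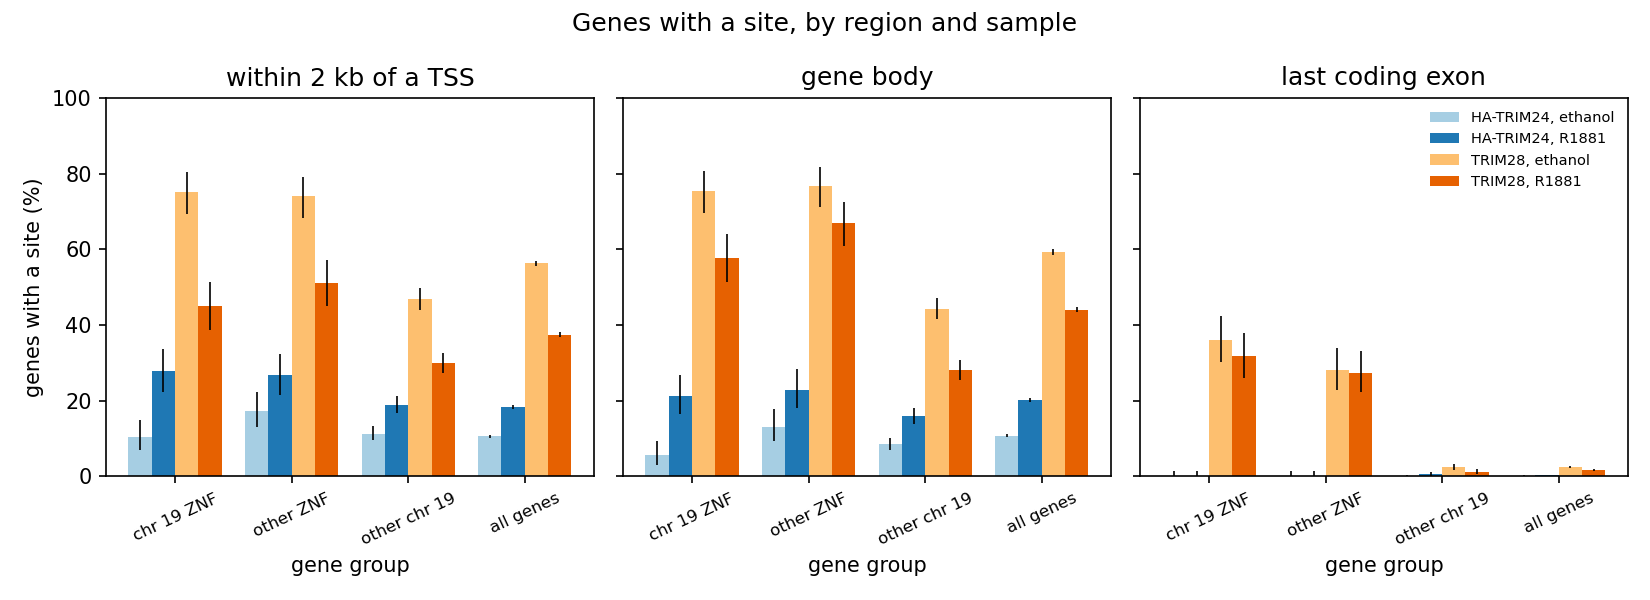
Percentage of genes (vertical axis) with a called site within 2 kb of a TSS, in the gene body or in the last coding exon, for the 249 ZNF genes of chromosome 19, the 266 ZNF genes of other chromosomes, the 1231 other genes of chromosome 19 and all 20176 protein-coding genes. Bars are the 4 libraries and lines the exact 95% intervals. In the last coding exon the TRIM28 bars of both ZNF groups stand between 27.4% and 36.1%, and those of all genes at 2.47% and 1.65%.

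The strongest exon site belonged to ZNF77, with 50.9 normalized tags in TRIM28 with ethanol and 54.8 with R1881. ZNF333, which lies outside every cluster, followed with 45.3 and 34.4. Both stood apart from the other exons, which reached at most 27.8 with ethanol and 30.2 with R1881.
ZNF180 had 22.7 with ethanol and 30.2 with R1881, and a second site of its exon had 13.9 and 21.1. ZNF583 had 19.9 and 28.1, ZNF134 had 24.7 and 28.1, and ZNF606 had 14.7 and 24.6. The remaining exons among the 10 strongest sites with R1881 were those of ZNF558 (17.5 and 23.2), ZNF461 (23.9 and 23.2) and ZNF529 (27.8 and 21.8). These exons were in the upper range of both TRIM28 lists, and in neither HA-TRIM24 list did any of them have a site in the exon.

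As a group, the exon sites had higher medians than the other sites of chromosome 19. The 103 exon sites with ethanol had a median of 9.1 normalized tags and the 91 with R1881 a median of 10.5. The sites of chromosome 19 outside the members had medians of 6.4 and 7.7 in the same lists. Of the 100 strongest TRIM28 sites of the chromosome, leaving out the span around the centromere, 26 with ethanol and 30 with R1881 lay in member last exons, although these sites were 5.32% and 8.18% of the chromosome's list. Sites of at least 20 tags numbered 8 of the 103 exon sites with ethanol and 13 of the 91 with R1881. Strong sites were not limited to the exons. Elsewhere in member gene bodies, 90 sites with ethanol and 49 with R1881 had medians of 6.4 and 9.1. Of these, 13 in each list were among the 100 strongest, and 5 and 7 had at least 20 tags. The exon sites were also poorer in GC, with medians of 41.8% and 42.04%, than the member sites near a TSS, with 60.6% and 60.5%.

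**Figure D2:**
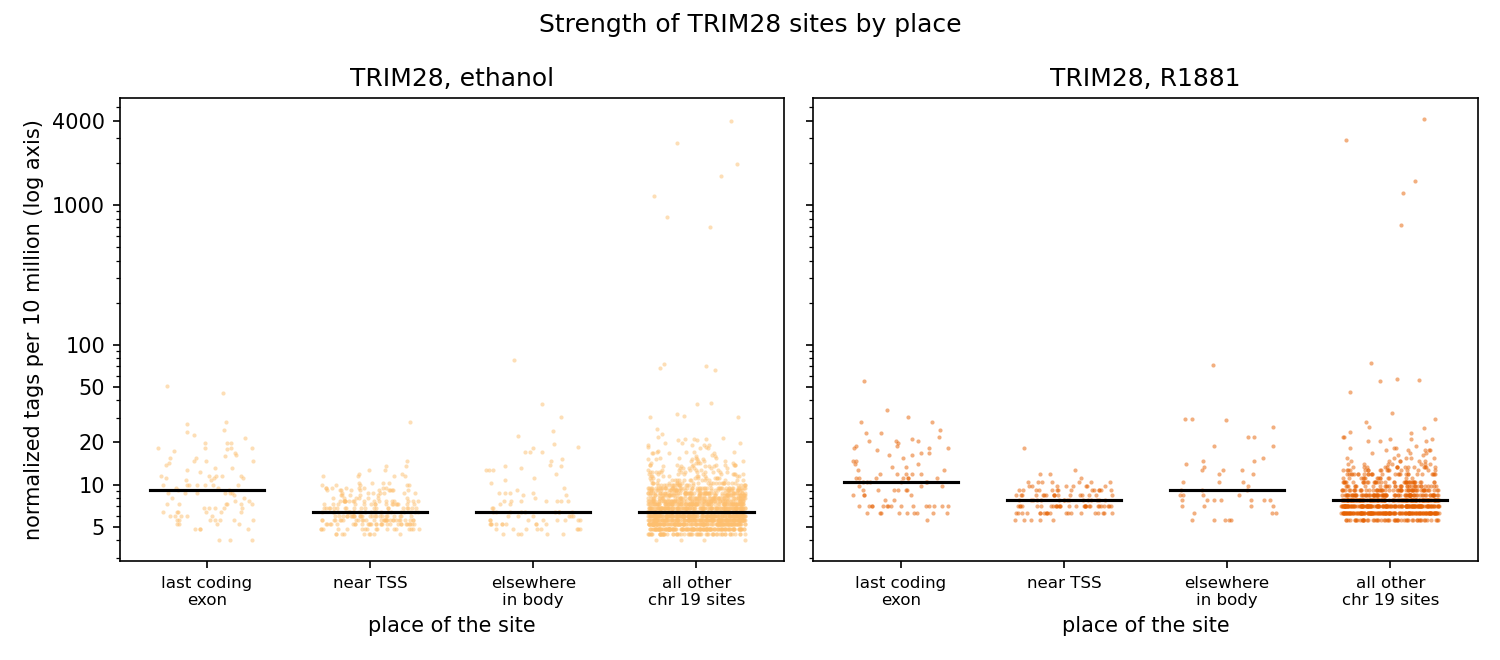
Normalized tags per 10000000 (log axis) of every TRIM28 site of chromosome 19, grouped by place along the horizontal axis, with ethanol on the left and R1881 on the right. Each point is a site and each bar a median. The last coding exon has the highest median in both panels, at 9.1 and 10.5, and the sites above 500 normalized tags are all in the group outside the members.

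Within the exon, most sites lay on the finger array. The site centre lay inside the array in 101 of 104 pairs of gene and site with ethanol (97.1%, interval 91.8 to 99.4) and in 88 of 92 with R1881 (95.7%, interval 89.2 to 98.8), where the array made up 74.5% and 73.3% of the coding bases of these exons. A site touched a median of 3 fingers. Read over the whole site, the finger pattern was present in 97.1% and 96.7% of the exon sites, in 0.407% and 0.820% of the member sites near a TSS, and in 1.27% and 1.53% of the chromosome 19 sites outside members. Since 3074 of the 3110 finger copies of members lie in these exons, the high share there largely restates where the fingers are. Exon windows without a site were not read for comparison.

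Centres leaned to the end of the exon that carries the stop codon. On a scale from 0 at the first coding base of the exon to 1 at the stop codon, the median was 0.62 with ethanol and 0.63 with R1881. With the exon cut into 3 equal parts, the part at the start held 18 centres with ethanol, the middle 39 and the end 47, and with R1881 the numbers were 13, 37 and 40. The stretch ahead of the first finger belongs to the starting part, and the place of the array in the exon was not adjusted for. In ZNF77 the centre lay 167 bp from the stop codon with ethanol and 151 bp with R1881, and in ZNF333 it lay 653 bp and 651 bp away, so each kept its own place in both lists.

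Several exons held more than 1 site. With ethanol 14 exons and with R1881 13 exons had 2 sites, and no exon had 3. The exons with 2 sites in both lists were those of ZNF180, ZNF345, ZNF556, ZNF557, ZNF571, ZNF700 and ZNF728. In ZNF556 the first site had 16.3 normalized tags with ethanol and 20.4 with R1881, and the second had 13.1 and 11.9. In ZNF700, which encodes 18 fingers, the stronger site had 27 and 19.7 and the weaker 18.3 and 13.4.

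**Figure D3:**
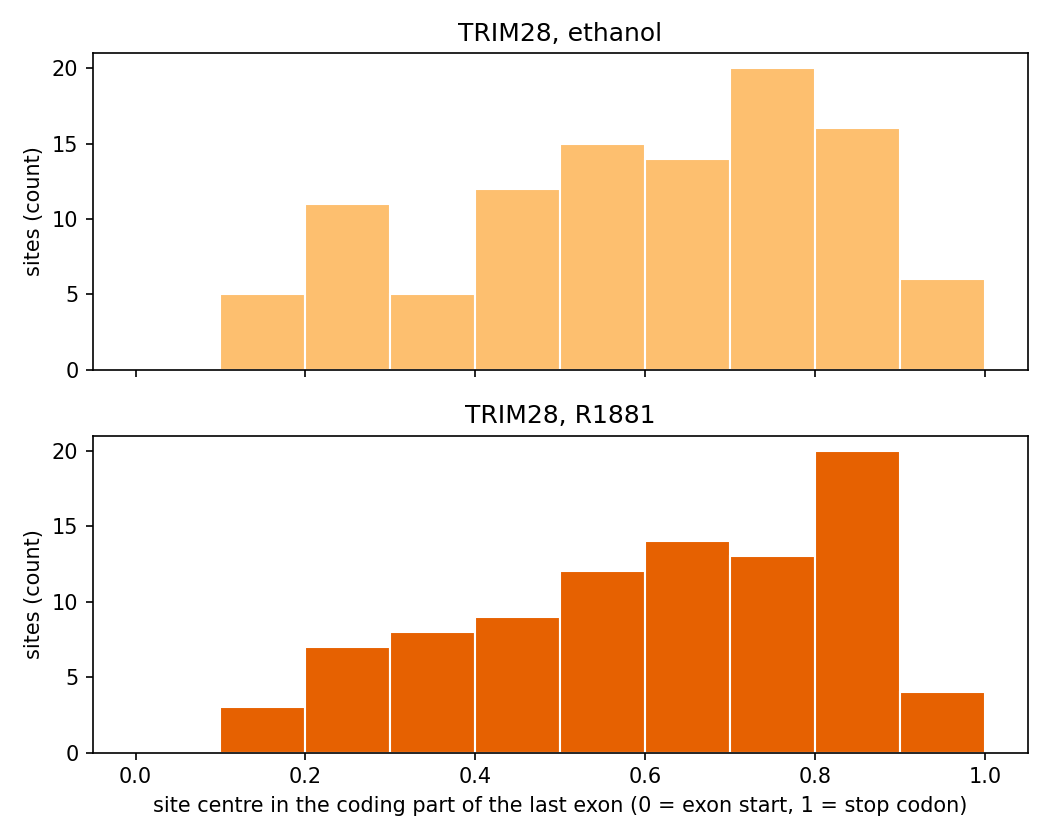
Count of TRIM28 sites (vertical axis) in 10 equal bins of the coding part of the last exon (horizontal axis, 0 at its first coding base and 1 at the stop codon), with ethanol above and R1881 below. The first bin is empty in both lists, and the medians are 0.62 and 0.63.

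Length, finger number and sequence similarity marked the exons with and without a TRIM28 site to different degrees. Exons with a site had medians of 13 fingers with ethanol and 12 with R1881, against 12 in the exons without a site in either list. Of the 13 members with fewer than 6 fingers, 0 had an exon site in either list, with an upper bound of 24.7%. Some of their last coding exons are short, such as those of ZNF414 (71 coding bp) and ZNF653 (175 coding bp), and length was not matched. Exons of 2000 coding bp or more had a site in 5 and 6 of 33 cases, and exons from 1500 to 2000 bp in 44 and 35 of 95.

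Exons with near-identical copies on the chromosome had a lower share. In the 25 exons where less than 80% of the 50-mers occurred only once on chromosome 19, 3 had a site in either list (12%), against 72 (42.1%) and 63 (36.8%) of the 171 exons where at least 95% did. Reads of paralogous exons can be lost or split in alignment, so absence of a site in the less distinct exons is uncertain. Exons with a GC content of at least 45% had a site in 12 (19.0%) and 10 (15.9%) of 63 cases, and those under 42% in 60 (44.1%) and 55 (40.4%) of 136.

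In the lists as called, the start of the gene was a more frequent place for TRIM28 than the finger exon. The gap was small at a common floor of 8 normalized tags. There, 62 members had a site near a TSS and 53 in the exon with ethanol, and 58 and 57 with R1881. The shares near a TSS were then 24.9% and 23.3% of members, and 23.2% and 16.5% of all genes. The window around each TSS is also longer than most of these exons. A TRIM28 site lay within 2 kb of a TSS in 187 of 249 members with ethanol (75.1%, interval 69.2 to 80.3) and in 112 with R1881 (44.98%, interval 38.7 to 51.4), where 56.3% and 37.4% of all protein-coding genes had one. ZNF genes of other chromosomes stood at 197 (74.1%) and 136 (51.1%) of 266, and other chromosome 19 genes at 577 (46.9%) and 368 (29.9%) of 1231. Unlike the exon sites, the sites near a TSS were of ordinary strength: leaving out those in a last coding exon, the 246 sites with ethanol and 122 with R1881 had medians of 6.4 and 7.7, the same values as chromosome 19 sites outside members. Their centres were a median of 138 bp and 112.5 bp from the nearest TSS, and 18 and 13 of them lay near a TSS of more than 1 member.

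The neighbours of the members within the clusters had fewer sites near their TSS than genes elsewhere. Among the 80 genes in the cluster spans with fewer than 3 fingers, 22 (27.5%) with ethanol and 10 (12.5%) with R1881 had a TRIM28 site within 2 kb of a TSS. Among the 1076 such genes of chromosome 19 outside the spans the numbers were 514 (47.8%) and 326 (30.3%).

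The strongest sites within 2 kb of a TSS mostly turned out to be finger exons that lie close to an annotated TSS. ZNF461 had 23.9 normalized tags with ethanol and 23.2 with R1881, ZNF529 had 27.8 and 21.8, and ZNF583 had 19.9 and 28.1, all in the last coding exon. ZNF420 had 18.3 and 20.4 and ZNF737 had 19.9 and 16.9, also in the exon. In ZNF420 these ethanol and R1881 sites did not overlap, so the values come from different places of the exon. ZNF761 was the exception among the 5 strongest of each list, with 28.2 with ethanol and 18.3 with R1881 outside the exon.

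A minority of the members had a site at both ends of the gene, and the same count over all protein-coding genes was not made. Counting exon sites at the exon only, 72 members with ethanol had TRIM28 both near a TSS and in the last exon, 18 in the exon alone, 113 near a TSS alone and 46 at neither end. With R1881 these numbers were 43, 36, 66 and 104. With ethanol 72 of the 90 members with an exon site also had a TSS site, against 71.1% of those without an exon site, and with R1881 the shares were 54.4% and 38.8%.

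Over the whole gene body, TRIM28 sites were centred in 188 members with ethanol (75.5%) and 144 with R1881 (57.8%), where 59.3% and 44.0% of all protein-coding genes had one. Without the sites in ZNF last exons these numbers became 157 (63.1%, interval 56.7 to 69.1) and 97 (39.0%, interval 32.9 to 45.3). The shares of all genes keep their exon sites, so they are not a like measure for these numbers. No site of any list in any of the 3 regions was present for 30 of the 249 members. How many of all protein-coding genes had none was not counted.

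A few of the strongest member sites were neither at the start nor in the finger exon. The strongest of all lay in the annotated span of ZNF208, overlapped no annotated exon, and had 77.9 normalized tags with ethanol and 71.7 with R1881. It was 23.2 kb beyond the last coding exon of the longest coding transcript, at chr19:22130688-22130844 in the R1881 list, and its sequence, given on the minus strand as for the gene, is shown because it holds no finger pattern.
ZNF208: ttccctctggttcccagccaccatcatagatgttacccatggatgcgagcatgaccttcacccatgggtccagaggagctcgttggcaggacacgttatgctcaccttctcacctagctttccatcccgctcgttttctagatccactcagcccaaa
The last coding exon of ZNF208, which encodes 36 fingers, had no site in either list. ZNF813 had an intronic site of 30.2 and 29.5 normalized tags with no finger pattern, and ZNF274 one of 24.3 and 26. In ZNF480 a site of 37.8 and 28.8 lay on an exon of a lncRNA inside the gene. ZNF573 had a site of 19.5 with ethanol and 29.5 with R1881 that overlapped no annotated exon but whose sequence held both the finger pattern and the linker pattern.

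Along the chromosome, 235 members fell into 10 clusters, defined as runs of at least 5 members with less than 500 kb between neighbours, and 14 lay outside. Near the short-arm end, the cluster from ZNF554 to ZNF77 (2.8 to 2.9 Mb) had a TRIM28 site in the last coding exon of 4 of 5 members in both lists. The cluster from ZNF414 to ZNF846 (8.6 to 9.9 Mb) had one in 8 of 14 members with ethanol and 10 with R1881, with ZNF558 the strongest at 17.5 and 23.2. Here ZNF177 and the readthrough gene ZNF559-ZNF177 share the same exon site in each list and count as separate members. They also count separately in the totals of all members and in the comparison of treatments. The cluster from ZNF653 to ZNF791 (11.6 to 12.8 Mb) had one in 15 and 10 of 26 members, with ZNF700 the strongest at 27 and 19.7. In both lists the share was above that of all members in each of these 3 clusters.

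With ethanol all the other clusters had lower shares than these 3, and with R1881 all but those that start at ZNF302 and ZNF565 did. The cluster from ZNF101 to ZNF254 (19.8 to 24.3 Mb), the most extended with 37 members over 4.53 Mb, had a site in 13 and 11 exons, with ZNF737 the strongest at 19.9 and 16.9. The cluster from ZNF302 to ZNF792 had one in 2 of 5 in both lists, led by ZNF599 at 11.5 and 14.1, from sites that did not overlap. The cluster from ZNF565 to ZNF573 (36.7 to 38.3 Mb) had one in 14 of 26 in both lists, led by ZNF529 with ethanol and ZNF461 with R1881. From ZNF575 to ZNF180 (44 to 45 Mb) there were 9 and 5 of 23 exons with a site. Beyond the first 3, the cluster of ZNF565 thus had the highest share in both lists.

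The 3 clusters nearest the long-arm end had the lowest shares with ethanol. From ZNF175 to ZNF331 (52.1 to 54.1 Mb) it was 8 of 40 members with ethanol and 9 (22.5%) with R1881, led by ZNF616 at 18.3 in both lists. From ZNF628 to ZNF835 (56.0 to 57.2 Mb) it was 4 of 16 in both, led by ZNF583, and from ZNF264 to ZNF446 (57.7 to 59.0 Mb) 10 of 43 (23.3%) and 8 (18.6%), led by ZNF134. Intervals were wide: those of the cluster of ZNF565, 33.4 to 73.4% in both lists, and of ZNF175, 9.05 to 35.6% with ethanol and 10.8 to 38.5% with R1881, overlapped.

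The clusters differed in sequence as well as in position. The cluster from ZNF101 to ZNF254 had the least distinct exons, with a median of 89.3% of 50-mers found only once on the chromosome, and that from ZNF175 to ZNF331 had 97.2%. In the cluster from ZNF628 to ZNF835 the median exon GC was 67.7%, and only 6 of 16 members had the KRAB pattern. The part of these features in the cluster shares was not tested. With only the 171 most distinct exons, an alternative chosen after seeing the data, the cluster of ZNF175 to ZNF331 came to 34.8% with ethanol (8 of 23) instead of 20% and to 39.1% with R1881 instead of 22.5%.

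Around the TSS the order of the clusters was another one. TRIM28 lay within 2 kb of a TSS in 26 of 26 members from ZNF565 to ZNF573 with ethanol and in 22 with R1881, and HA-TRIM24 in 6 and 17 of them, the largest HA-TRIM24 count of any cluster in both lists. From ZNF175 to ZNF331 TRIM28 was there in 30 and 20 of 40 members, and from ZNF264 to ZNF446 in 35 and 21 of 43. So the clusters toward the long-arm end, low in exon sites, were not low at the TSS. From ZNF101 to ZNF254 it was 22 and 8 of 37 for TRIM28 and 1 and 2 for HA-TRIM24.

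The cluster from ZNF575 to ZNF180 stood apart. TRIM28 was near a TSS in 7 of 23 members with ethanol and in 0 with R1881, and HA-TRIM24 in 0 with either treatment, where the upper bound of 0 of 23 is 14.8%. Its 12 other genes had no site of any list near a TSS. With R1881 the whole span of 0.97 Mb held 8 TRIM28 sites, of which 6 were in member last exons, among them the pair in ZNF180. TRIM28 was thus still listed on finger exons of this cluster where its TSSs had none.

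**Figure D4:**
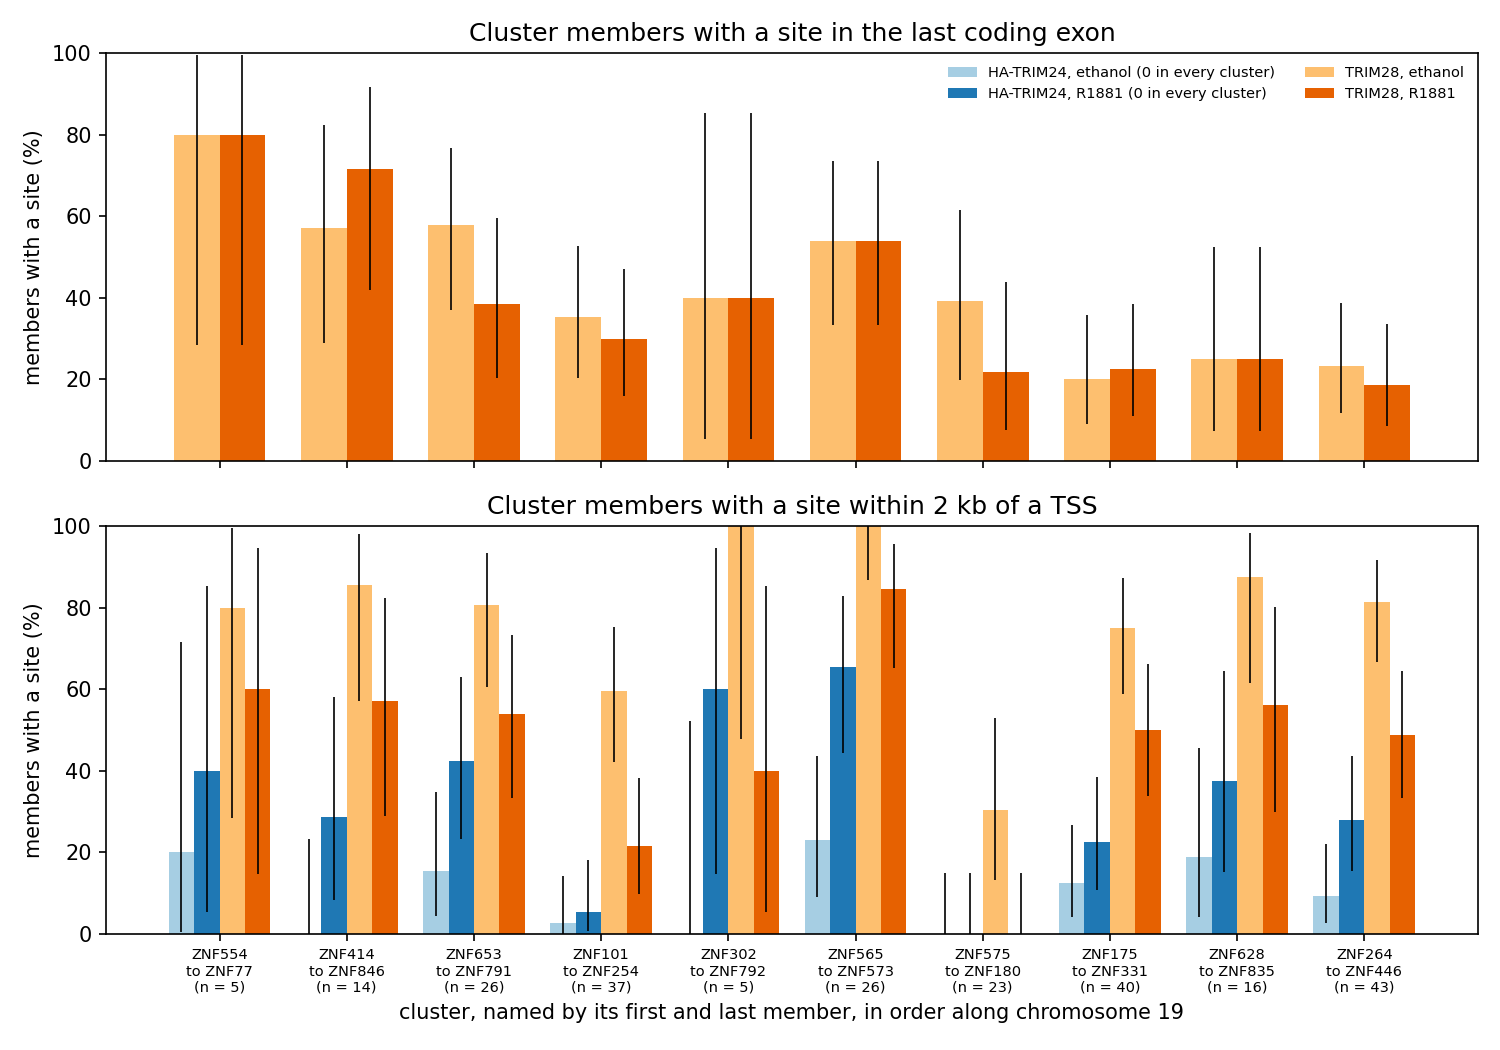
Percentage of the members of each cluster (vertical axis) with a site in the last coding exon (upper panel) and within 2 kb of a TSS (lower panel), for the 10 clusters in their order along chromosome 19. Bars are libraries and lines exact 95% intervals. HA-TRIM24 has no exon site in any cluster, and the cluster from ZNF575 to ZNF180 has TSS sites of TRIM28 with ethanol only.

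Sites of TRIM28 were 38.9 per Mb inside the cluster spans and 33.2 per Mb in the rest of the chromosome with ethanol, a ratio of 1.17, and 23.7 and 18.6 per Mb with R1881, a ratio of 1.27. Without the sites in ZNF last exons the ratios were 0.969 and 0.949. Nearly all of these sites lie inside the clusters, which are runs of the same genes, so the ratios had to fall. HA-TRIM24 sites were less dense inside the clusters, at 2.84 against 3.94 per Mb with ethanol and 5.96 against 7.49 per Mb with R1881.

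HA-TRIM24 sites of the members were almost all at the start of the gene. A site lay within 2 kb of a TSS in 26 of 249 members with ethanol (10.4%, interval 6.94 to 14.9) and in 69 with R1881 (27.7%, interval 22.2 to 33.7), where 10.6% and 18.4% of all protein-coding genes had one. ZNF genes of other chromosomes had one in 46 (17.3%) and 71 (26.7%) of 266 cases, so the chromosome 19 members were near the genome-wide share with ethanol and near the other ZNF genes with R1881. The sites numbered 22 and 64 in all, with medians of 9.5 and 8.5 normalized tags and centres a median of 94 bp and 92.5 bp from a TSS. In the gene body 14 (5.62%) and 53 (21.3%) members had a site, where 10.7% and 20.1% of all genes had one.

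The strongest HA-TRIM24 site near a member TSS was that of ZNF844 in both lists, with 14.6 normalized tags with ethanol and 18.6 with R1881. TRIM28 had 9.9 and 9.8 near the same TSS, and 21.5 and 17.6 in the last exon, where HA-TRIM24 had no site. ZNF274 had 10.3 and 13.2 for HA-TRIM24 and ZNF554 had 9.5 and 12.4. ZNF844 thus had both proteins at its start and TRIM28 alone in its last exon, where the site touched 0 of its fingers in both lists.
ZNF71 had 12.9 with ethanol and 10.1 with R1881, and ZNF473 had 11.2 and 6.2. ZNF653 had 11.2 with ethanol and no site with R1881. ZNF569 and ZNF570, which lie head to head, had 10.3 with ethanol and 9.3 with R1881 near their TSSs. These 4 places were lower with R1881 or not listed.
Sites listed with R1881 only included ZNF606 with 14.0 and the site shared by ZNF585B and ZNF383 with 12.4. Away from a TSS, 2 HA-TRIM24 sites were listed in a gene body, both with R1881: ZNF563 had an intronic site of 20.2, the strongest HA-TRIM24 site of any member, and ZNF302 had one of 12.4 on an exon.

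Where HA-TRIM24 sat near a member TSS, TRIM28 often did too. Of the 22 HA-TRIM24 sites with ethanol, 15 overlapped a TRIM28 site of the same treatment (68.2%, interval 45.1 to 86.1), where the share over all HA-TRIM24 sites was 63.8%. With R1881 it was 32 of 64 (interval 37.2 to 62.8), where the share over all was 50.1%. Both shares lay within the interval of the members. Of the members with HA-TRIM24 near a TSS, 26 of 26 with ethanol and 53 of 69 with R1881 (76.8%) also had TRIM28 within 2 kb of a TSS, which was 13.9% and 47.3% of the members with TRIM28 there. Over all protein-coding genes with HA-TRIM24 near a TSS, 95.6% and 73.3% also had TRIM28 there, close to the members, and this was 18.0% and 36.1% of the genes with TRIM28.

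Of the members with TRIM28 in the finger exon with ethanol, 81.1% also had it with R1881, against 57.2% near a TSS. Over all protein-coding genes these shares were 55.2% and 61.3%. In the other direction, 92.4% of the members with an exon site with R1881 and 95.5% of those with a TSS site also had it with ethanol, where those of all genes were 82.8% and 92.3%. TRIM28 had an exon site in both lists in 73 members, with ethanol only in 17 and with R1881 only in 6, namely ZNF160, ZNF253, ZNF562, ZNF836, ZNF841 and ZNF846. Near a TSS it was in both in 107 members, with ethanol only in 80 and with R1881 only in 5. HA-TRIM24 near a TSS was in both in 17, with ethanol only in 9 and with R1881 only in 52. The shared members were 65.4% of those with ethanol and 24.6% of those with R1881, where the shares over all genes were 55.3% and 31.8%.

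Depth moves with these counts, since the TRIM28 list with ethanol had the larger library and the lower floor. With a common floor of 8 normalized tags, TRIM28 exon sites were in 53 members with ethanol (21.3%) and 57 with R1881 (22.9%), where 1.12% and 0.996% of all protein-coding genes had one. Near a TSS it was 62 (24.9%) and 58 (23.3%), where 23.2% and 16.5% of all genes had one. On this scale the members no longer had fewer TRIM28 sites with R1881 in the exon, and the gap near the TSS was 4 members. HA-TRIM24, whose libraries were close in depth, was near a TSS in 21 members with ethanol (8.43%) and 45 with R1881 (18.1%) at that floor, where 8.69% and 11.8% of all genes had one.

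In the 73 exons with a TRIM28 site in both lists, the strongest site was compared between the treatments. The median log2 ratio of R1881 over ethanol was 0.17, and 45 exons (61.6%) were higher with R1881, while over the 21637 overlapping TRIM28 sites of the genome the median was 0.08 and 56.7% were higher. A ratio of at least 1.5 was reached by 6 exons upward (8.22%) and 2 downward (2.74%), where 13.0% and 6.99% of all overlapping sites did. These are not like measures. The exons give their strongest site only, overlapping or not, while the genome gives every overlapping site, and strength was not matched. In 66 of the 73 exons the strongest sites of both lists overlapped. Across exons, which are not independent replicates, the log2 values had a Pearson r of 0.865 and a Spearman rho of 0.843 as a description.

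The largest upward ratio was that of ZNF121, with 4.8 normalized tags with ethanol and 10.5 with R1881, a ratio of 2.19 (interval 0.965 to 5.17). ZNF699 followed with 4.0 and 7.7, ZNF850 with 8.7 and 15.5 and ZNF665 with 7.2 and 12.6. The interval included 1 in each of these, and they rest on few tags.
ZNF606, with 14.7 and 24.6, had a ratio of 1.67 (interval 1.02 to 2.73), the only interval among the 73 that left out 1, before any correction for 73 exons. The lowest ratios were those of ZNF772 (11.5 and 7.0), ZNF230 (14.7 and 9.1), ZNF254 (8.7 and 6.3), ZNF700 (27 and 19.7) and ZNF426 (11.5 and 8.4). The ratio of ZNF772 was 0.609 (interval 0.265 to 1.29), and the intervals of the other 4 also included 1. In ZNF426 the strongest sites of the 2 lists did not overlap, so its ratio sets different places of the exon side by side.

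**Figure D5:**
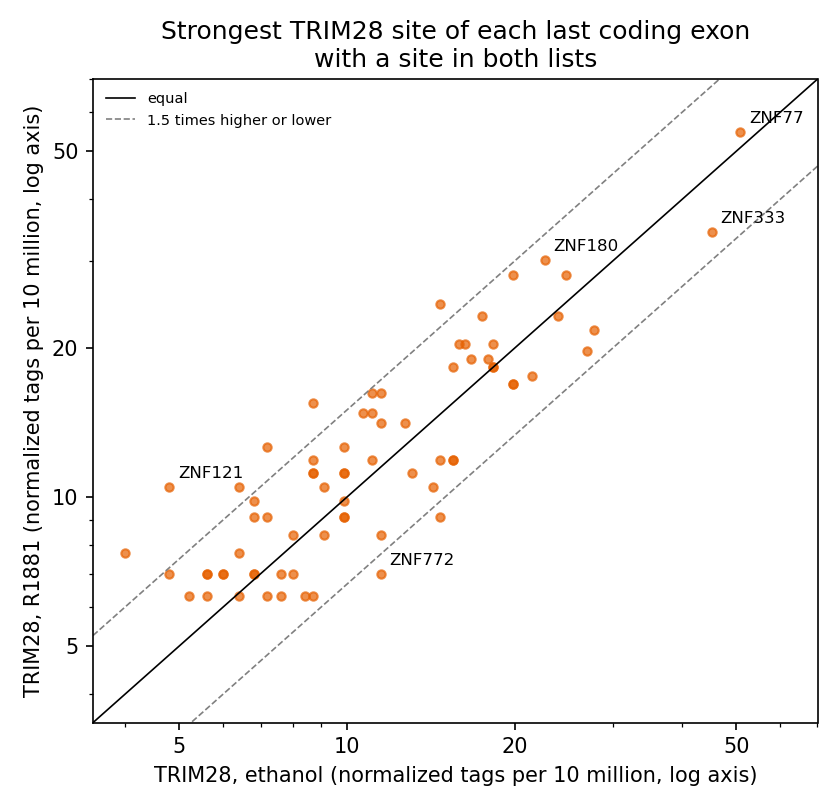
Normalized tags per 10000000 of the strongest TRIM28 site of each last coding exon, with ethanol on the horizontal and R1881 on the vertical axis (both log), for the 73 members with a site in both lists. The solid line marks equal values and the dashed lines a ratio of 1.5, which 6 exons pass upward and 2 downward.

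The proteins that work with TRIM28 on ZNF targets were looked at in the same way, as a list of 19 genes for its partners and readers of silent chromatin. The list also counts the TRIM28 gene itself. TRIM28 was near a TSS of 15 of the 19 with ethanol and 13 with R1881, where 56.3% and 37.4% of all genes had such a site. Among them were SETDB1, the H3K9 methyltransferase, and CBX1, CBX3 and CBX5, which encode the HP1 proteins, all in both lists. HA-TRIM24 was near a TSS of 6 (31.6%) and 4 (21.1%), where 10.6% and 18.4% of all genes had one. In both HA-TRIM24 lists were CBX1, TRIM28 and DNMT1, the maintenance DNA methyltransferase. None of the 19 had a site in the last coding exon in any of the 4 lists, where at most 2.47% of all genes did. The TRIM28 gene itself lies just beyond the last ZNF cluster, at chr19:59055431-59062089, and its strongest site near a TSS had 8.6 normalized tags (ethanol) and 15.5 (R1881) for HA-TRIM24, and 8.7 and 9.1 for TRIM28.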

How the data were processed

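The authors aligned reads to hg19 with BWA 0.6.1 and called sites in each library with HOMER 4.1 in its factor mode, with an FDR of 0.001, a 4-fold excess over the local 10 kb and a Poisson p-value limit of 1e-04. The deposited signal is HOMER's normalized tag count, per 10000000 tags. The deposited lists also hold the fold over the local region, a ratio used as an alternative strength, and an unadjusted p-value and a peak score, which were not used. The lists are per library and were not pooled.

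Genes came from GENCODE release 44 on GRCh37, whose chromosome 19 has the length of hg19. A gene had a site near a TSS when a site centre lay within 2 kb of any of its TSSs, in its body when the centre lay between its ends, and in the last coding exon when at least 1 bp overlapped the coding part. Fingers were found in the translation as 2 cysteines 2 to 4 residues apart, 12 residues on 2 histidines 3 to 5 residues apart, and the KRAB pattern as at least 11 of 14 conserved positions of its A box. ZNF274 has stop codons in its frame on GRCh37, and it was left out of the medians and bins of finger number. The totals of finger patterns did not leave it out. Shares have Clopper-Pearson intervals, and ratios exact intervals from the tags. Counting was checked on simulated data against brute force.

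Members, lists and rules were chosen with earlier results of these data known. Genes were named as the 10 strongest TRIM28 exon sites with R1881, the strongest of each cluster, the 5 highest and 5 lowest R1881 to ethanol ratios, exons with the most sites, the 5 strongest sites near a TSS and, for HA-TRIM24, in the body, plus the 19 partner genes. The TRIM28 body sites of ZNF208, ZNF274, ZNF480, ZNF573 and ZNF813 were named after their values were seen. The scripts used Python 3.11.15, numpy 2.4.6, pandas 2.3.3, scipy 1.17.1 and matplotlib 3.10.9.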

Additional observations from a re-analysis of the deposited data

Results flagged for a closer look

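The members with a site moved in opposite directions for HA-TRIM24 and TRIM28 between ethanol and R1881. Near a TSS the number of members with HA-TRIM24 went from 26 to 69, a log2 ratio of 1.41, while that with TRIM28 went from 187 to 112, a log2 ratio of -0.74. Over all protein-coding genes the log2 ratios near a TSS were 0.80 and -0.59, in the same directions. In the gene body the log2 ratios were 1.92 for HA-TRIM24 and -0.38 for TRIM28 in members, and 0.91 and -0.43 over all genes. The difference was not tested, since each condition has 1 library, and the TRIM28 library with ethanol had 25145171 tags against 14231181 with R1881. At a common floor of 8 normalized tags, the TRIM28 numbers near a TSS were 62 and 58 and those of HA-TRIM24 were 21 and 45.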

How the results depend on the processing

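Of 111 alternatives to 29 results, 92 kept their value within its interval and 19 moved outside it. Whether a result reversed was not scored. With at least 8 normalized tags, the TRIM28 shares of members became 24.9% with ethanol and 23.3% with R1881 near a TSS, 39.4% and 38.2% in the body and 21.3% and 22.9% in the last exon, and those of HA-TRIM24 with R1881 became 18.1% near a TSS and 13.7% in the body. At the same floor, the exon shares with ethanol in the clusters that hold ZNF180, ZNF616 and ZNF134 became 17.4%, 5% and 11.6%, and the density ratios inside against outside the clusters became 1.31 with ethanol and 1.73 with R1881. Here fewer sites remain by construction. With the TSS of the longest coding transcript alone, the TRIM28 share near a TSS with ethanol was 68.7%. Without the sites in ZNF last exons, the TRIM28 body shares were 63.1% and 39.0% and the density ratios 0.969 and 0.949. With ethanol this took the sites inside the clusters from 562 to 463 and those outside from 1374 to 1370. The clusters are runs of the same genes, so the ratios had to fall. These sites were not left out at the floor of 8 normalized tags. With exons of at least 95% of 50-mers found once, chosen after seeing the data, the exon share of the cluster of ZNF616 with R1881 was 39.1%. With 250 kb or 1000 kb between clusters there were 12 or 9 clusters in place of 10. No paired analysis was possible because each condition has 1 library and the results come from no test, and no replicate could be left out. Depth limits the weaker sites: near a TSS, 187 members had TRIM28 with ethanol and 62 at the common floor.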
